A study of Mus musculus with 6 samples.

Results

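The genes described here are 10 that the extracellular signal-regulated kinases ERK1 and ERK2 are known to induce: the dual-specificity phosphatases Dusp4, Dusp5 and Dusp6, the Sprouty genes Spry1, Spry2 and Spry4, the Spred genes Spred1 and Spred2, and the transcription factors Etv5 and Egr1. They were chosen by name, as members of this pathway, with earlier results of these data known. A gene was read from the probe set that names it alone, and where several did, from the one with the highest mean over the 6 arrays. All 10 were found, among 19733 genes tested. Expression was profiled with Affymetrix arrays in pre-B cells from the bone marrow of Ppp2r1afl/fl mice, whose Ppp2r1a alleles are floxed, after transduction with BCR-ABL1, the fusion kinase of Philadelphia chromosome-positive leukaemia. The 3 Cre arrays come from such cells transduced with Cre to delete Ppp2r1a, which encodes a scaffold subunit of the phosphatase PP2A. The 3 EV arrays come from such cells with an empty vector, labelled wild type although they carry the floxed alleles and BCR-ABL1 too. Nothing analysed here had Cre without floxed alleles, so an effect of Cre itself cannot be told apart from the loss of Ppp2r1a.

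ERK is the last kinase of the cascade that runs through RAS, RAF and MEK, and BCR-ABL1 drives this cascade. Active ERK switches on genes whose products shut it down again: dual-specificity phosphatases strip the activating phosphates from ERK, Sprouty proteins block the path from receptors to RAF, and Spred proteins bring the RAS inhibitor neurofibromin to the membrane. Because ERK induces them, their mRNA is widely used as a readout of the cascade's output. In pre-B cells transformed by BCR-ABL1 this negative feedback has been studied as a condition of transformation.

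Values are log2 levels made with RMA by the authors, and a difference is the mean of Cre minus the mean of EV. Levels of different probe sets are not comparable, so each change was read within 1 gene. Mean levels of marker lists, and levels set beside the median of all genes, are therefore only a rough guide. Ppp2r1a read 7.12, 6.98 and 6.92 on the Cre arrays and 9.06, 9.05 and 9.06 on the EV arrays, so the deleted gene followed the labels. Of the 9 B lineage markers measured, 1, the recombinase gene Rag1, fell. The mean of the other 8 lay between 10.97 and 10.99 on the Cre arrays and between 10.98 and 11.02 on the EV arrays. Within these 8, changes ran from -0.24 (Ebf1) to 0.14 (Cd79a), both without overlap and with an unadjusted p below 0.05 in limma. Il7r was lower and Pax5 higher, also without overlap. Markers of T, myeloid, erythroid and stromal cells had mean levels per list between 3.95 and 4.94 on the Cre arrays and between 3.87 and 4.99 on the EV arrays, and 0 of them passed the test (1 myeloid and 1 stromal marker had an unadjusted p below 0.05 in limma). The labels number the arrays as repeats without saying whether these were separate cultures or mice. The p-values therefore rest on the spread among arrays that may be technical repeats. In RNA from bulk cells, fewer cells that use a gene and less of its RNA per cell cannot be told apart.

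The stretches upstream of 4 of these genes are shown because their letters hold motifs of factors that act at the end of the ERK cascade. Sequences are from RefSeq (GRCm38.p6), and windows of 7 of the 10 genes were used, 8 in all, since Etv5 has 2 starts. Those of Dusp4, Spry4 and Egr1 were not used here. Each window holds the 250 bases before the start, written 5′ to 3′ on the gene's own strand, with motif matches in capitals. Spred1 lies at chr2:117120821-117121070 (plus strand), Spred2 at chr11:19924192-19924441 (plus strand), Dusp6 at chr10:99262981-99263230 (plus strand) and Dusp5 at chr19:53528895-53529144 (plus strand).
Spred1: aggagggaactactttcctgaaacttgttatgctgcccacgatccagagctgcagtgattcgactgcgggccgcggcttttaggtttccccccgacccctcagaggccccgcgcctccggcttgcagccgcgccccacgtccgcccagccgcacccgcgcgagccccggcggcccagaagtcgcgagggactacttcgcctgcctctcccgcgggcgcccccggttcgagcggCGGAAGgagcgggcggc
Spred2: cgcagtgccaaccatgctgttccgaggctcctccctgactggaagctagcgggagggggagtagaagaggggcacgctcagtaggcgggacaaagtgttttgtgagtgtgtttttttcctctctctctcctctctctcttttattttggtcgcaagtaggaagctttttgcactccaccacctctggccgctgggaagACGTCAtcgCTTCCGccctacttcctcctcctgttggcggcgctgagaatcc
Dusp6: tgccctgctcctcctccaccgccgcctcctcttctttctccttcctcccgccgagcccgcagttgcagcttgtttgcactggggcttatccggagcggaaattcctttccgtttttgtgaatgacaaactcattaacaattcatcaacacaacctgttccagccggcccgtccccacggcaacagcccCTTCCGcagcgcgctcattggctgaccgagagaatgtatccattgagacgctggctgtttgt
Dusp5: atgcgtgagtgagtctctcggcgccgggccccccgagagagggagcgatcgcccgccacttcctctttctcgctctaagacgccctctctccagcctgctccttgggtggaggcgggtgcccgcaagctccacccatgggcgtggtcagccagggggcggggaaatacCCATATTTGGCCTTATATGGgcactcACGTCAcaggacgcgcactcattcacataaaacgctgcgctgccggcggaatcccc

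The motifs were searched on both strands, and in these windows no match overlapped another. The ETS core CGGAAG, bound by factors such as Etv5 and the Elk proteins, was in 3 of the 8 windows, those of Spred1, Spred2 and Dusp6, against 13.6% of all 32851 RefSeq windows of this length. The core of the cyclic AMP response element, TGACGT, was in 2 of the 8, those of Spred2 and Dusp5, against 6.47% of all. The serum response element, bound by serum response factor, was matched in 1 of the 8 windows and in 1.47% of all. That window is Dusp5's, where the element stands at bases 82 to 73 before the start and again, with no gap, at bases 72 to 63. The AP-1 motif TGANTCA and the EGR motif GCGNGGGCG had 0 matches in the 8 windows, against 6.75% and 4.7% of all. The 8 windows held between 56% and 71.2% G and C, against a median of 52.4% over all windows. The shares of all windows were not matched for this, so the counts beside them do not show enrichment. These are matches of letters, not sites shown to be bound.

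All 10 genes had a lower mean in the Cre cells than in the EV cells, by small amounts. Of the 10, 2 fell, Dusp4 and Spred1, 0 rose and 8 did not pass (limma, Benjamini-Hochberg adjusted p below 0.05 over all genes). Among all 19733 genes, 3.49% passed: 2.14% fell and 1.35% rose. At an unadjusted p below 0.05 in limma, 6 of the 10 were lower and 0 higher, against 9.02% and 7.1% of all genes. The Cre arrays all lay below the EV arrays for 5 of the 10, namely Dusp4, Dusp6, Spred1, Spred2 and Etv5, against 12.2% of all genes. They lay above all EV arrays for 0 of the 10 and for 10.3% of all genes. A mean below that of EV was found for 50.9% of all genes. The median change of the 10 was -0.28 on the log2 scale, against -0.0027 for all genes, with a range of -0.50 to -0.026. The 10 genes respond to one cascade and are not independent of each other, so their common sign is a description and was given no test. Leaving out single arrays changed the count of falls to between 0 and 1, as described for each gene below.

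**Figure D1:**
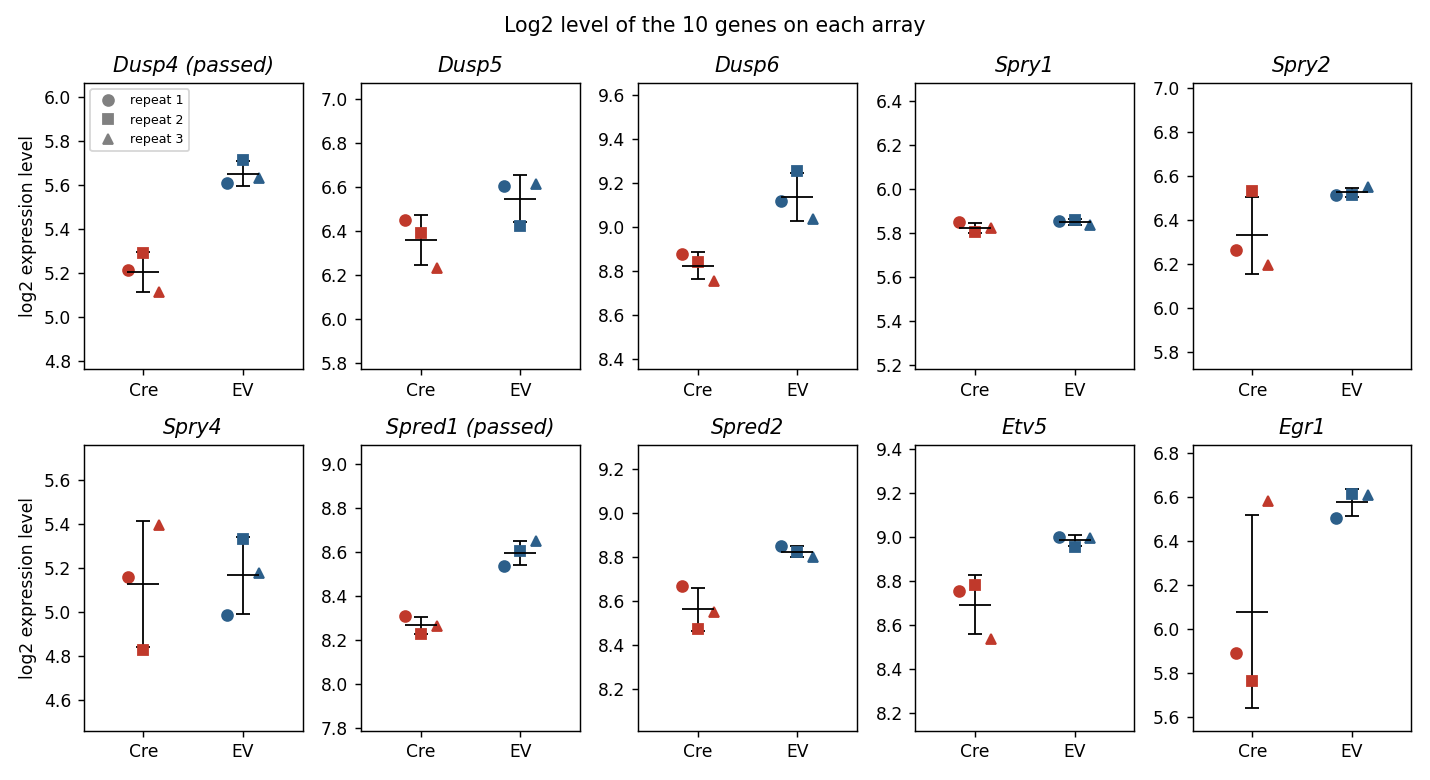
Log2 expression level (y axis, all panels of equal height in log2 units) of the 10 genes on the 3 Cre arrays and the 3 EV arrays, with repeats as circles, squares and triangles, and the mean ± SD as black bars. For Dusp4, Dusp6, Spred1, Spred2 and Etv5 the Cre arrays lie below all EV arrays, and Egr1 has 1 Cre array, repeat 3, at the level of EV.

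Dusp4, a nuclear phosphatase that acts on ERK and other MAP kinases, fell 1.36-fold in the Cre cells. It read 5.21, 5.29 and 5.11 on the Cre arrays and 5.61, 5.71 and 5.63 on the EV arrays. The groups did not overlap, and the gap between them was wider than the range within either. The Cre mean of Dusp4 lay below the median level of all genes, 5.25, and its EV mean lay above it. The log2 change was -0.45 (SE 0.07; 95% interval -0.62 to -0.28; limma adjusted p = 0.0170). The call was lost when any array other than Cre replicate 2 was left out, with adjusted p between 0.0524 and 0.0659 and changes between -0.47 and -0.40.

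Dusp6, a cytoplasmic phosphatase specific to ERK and a standard readout of ERK output, did not pass although its arrays separated. It read 8.88, 8.84 and 8.76 on the Cre arrays and 9.12, 9.26 and 9.04 on the EV arrays. Every Cre array was lower than every EV array, with a mean difference of -0.31 (SE 0.08; 95% interval -0.49 to -0.13; limma adjusted p = 0.0846). The call turned on the filter for dim genes: with the lowest 25% of genes left out the limma adjusted p was 0.0493. Dusp5, a nuclear phosphatase specific to ERK, read 6.45, 6.39 and 6.23 on the Cre arrays and 6.61, 6.42 and 6.61 on the EV arrays. Its groups overlapped, since Cre replicate 1 stood above EV replicate 2. The difference was -0.19 (SE 0.09; 95% interval -0.39 to 0.013; limma adjusted p = 0.349).

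Spred1, an adaptor that binds neurofibromin, fell 1.26-fold in the Cre cells. It read 8.31, 8.23 and 8.26 on the Cre arrays and 8.54, 8.60 and 8.65 on the EV arrays. Both groups were tight and did not overlap. The change was -0.33 (SE 0.06; 95% interval -0.48 to -0.18; limma adjusted p = 0.0346). Each of the 6 arrays was needed for the call: with any 1 left out the change stayed between -0.36 and -0.30, and the limma adjusted p lay between 0.0748 (without EV replicate 1) and 0.129 (without Cre replicate 2).

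Spred2, its paralogue with the same role, read 8.67, 8.47 and 8.55 on the Cre arrays and 8.85, 8.82 and 8.80 on the EV arrays. The groups did not overlap, and the difference of -0.26 (SE 0.07; 95% interval -0.43 to -0.09) did not pass (limma adjusted p = 0.113). A second probe set of Spred2 read 8.59, 8.46 and 8.48 on the Cre arrays and 8.76, 8.73 and 8.93 on the EV arrays. Those groups did not overlap either, with a difference of -0.30 (SE 0.08; limma adjusted p = 0.102 over all 25006 probe sets). The 2 probe sets of Spred2 thus gave differences of like size on the same RNA.

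**Figure D2:**
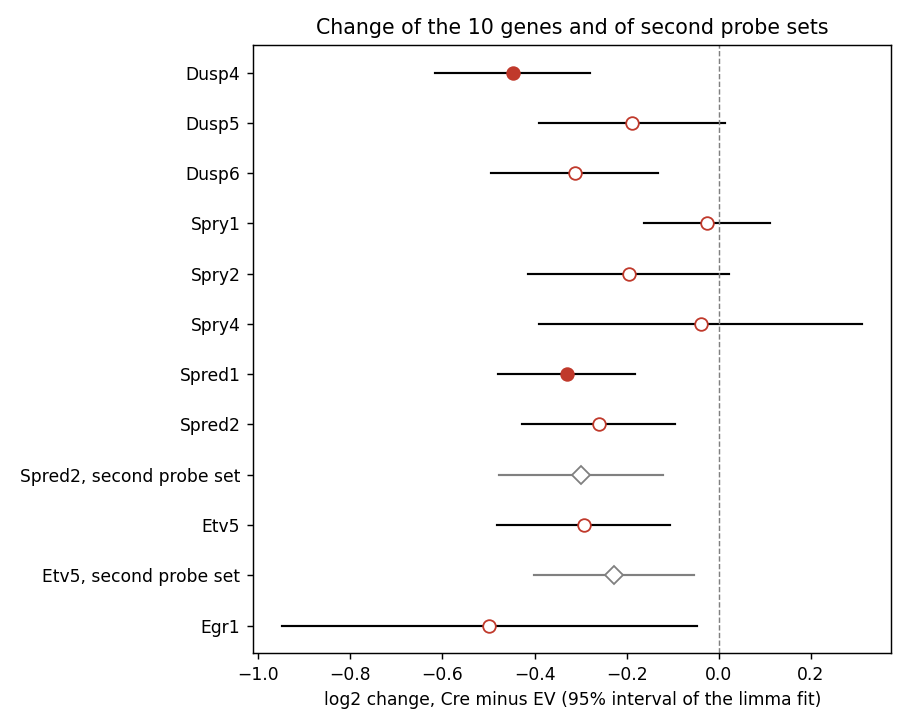
Log2 change, Cre minus EV, of the 10 genes (circles) and of the second probe sets of Spred2 and Etv5 (grey diamonds), with 95% intervals from the limma fit. Filled circles mark Dusp4 (-0.45) and Spred1 (-0.33), which passed, and the intervals of Dusp5, Spry1, Spry2 and Spry4 include 0.

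None of the 3 Sprouty genes passed, and their arrays overlapped. Spry1 read 5.85, 5.80 and 5.82 on the Cre arrays and 5.85, 5.86 and 5.84 on the EV arrays. Its readings were the tightest of the 10 genes within Cre and within EV, with an SD of 0.023 in Cre and 0.013 in EV (n = 3 each). The difference was -0.026 (SE 0.06), and its 95% interval of -0.16 to 0.11 excludes a fall as large as the estimate for Dusp4 or Spred1.

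Spry2 read 6.26, 6.53 and 6.20 on the Cre arrays and 6.51, 6.52 and 6.55 on the EV arrays. Cre replicate 2 stood with the EV arrays and the other Cre arrays stood below them. The difference was -0.20 (SE 0.09; 95% interval -0.41 to 0.023; limma adjusted p = 0.372), and it was -0.30 without Cre replicate 2 (limma adjusted p = 0.131). Spry4 read 5.16, 4.83 and 5.40 on the Cre arrays and 4.99, 5.34 and 5.18 on the EV arrays. The Cre arrays spanned the whole range of the EV arrays, and the 95% interval of the difference, -0.39 to 0.31, leaves a change of either sign possible. The sign of Spry4 turned to 0.11 without Cre replicate 2 and to 0.0445 without EV replicate 2.

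Etv5, an ETS factor of the PEA3 group that ERK induces and activates, had separate groups but did not pass. It read 8.76, 8.78 and 8.54 on the Cre arrays and 9.00, 8.96 and 9.00 on the EV arrays. Every Cre array was below every EV array, and Cre replicate 3 was the lowest. The difference was -0.29 (SE 0.08; 95% interval -0.48 to -0.11; limma adjusted p = 0.115). A second probe set of Etv5 read 7.57, 7.48 and 7.52 on the Cre arrays and 7.83, 7.63 and 7.79 on the EV arrays, again without overlap. It differed by -0.23 (SE 0.07; limma adjusted p = 0.182 over all probe sets).

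Egr1, a zinc finger factor that is switched on within minutes of ERK activity, had the lowest mean change of the 10 and the widest spread. It read 5.89, 5.76 and 6.58 on the Cre arrays and 6.50, 6.61 and 6.61 on the EV arrays. Cre replicate 3 stood among the EV arrays, while Cre replicates 1 and 2 stood well below them. The difference was -0.50 (SE 0.19; 95% interval -0.95 to -0.05) and did not pass (limma adjusted p = 0.260). Without Cre replicate 3 it was -0.75 with a limma adjusted p of 0.00786, so this array decides whether Egr1 is called. The SD of Egr1 was 0.44 in Cre and 0.06 in EV (n = 3 each), larger than that of 99.5% of genes within Cre and than that of 26.9% within EV.

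Cre replicate 3 also read high for some other immediate early genes, which are transcribed at once after a stimulus without new protein. Of 37 on the list, Egr1 not counted, 5 read over 0.5 above the mean of Cre replicates 1 and 2 on this array: Fosb, Nr4a1, Myc, Egr2 and Fos. Over all genes 0.715% did so. The array and this cut were not fixed beforehand, so the counts are a description. Without a cut, Cre replicate 3 was the highest Cre array for 21 of the 37 and for 34.9% of all genes. EV replicate 3 was the highest EV array for the 5 genes over the cut, as it was for 36.8% of all genes, but not for Egr1. Fosb, a partner of JUN in AP-1, read 7.59 on Cre replicate 3, against 6.27 and 6.41 on Cre replicates 1 and 2, and 6.74 on EV replicate 3, against 6.17 and 6.05 on EV replicates 1 and 2. Nr4a1, an orphan nuclear receptor, read 5.89 on Cre replicate 3, against 5.17 and 5.13 on the other Cre arrays, and 5.51 on EV replicate 3, against 5.26 and 5.06 on the other EV arrays. With the repeat number as a block, the SE of the change was 0.15 for Fosb, 0.11 for Nr4a1 and 0.07 for Egr2. Without it the SE was 0.34, 0.21 and 0.18, and none of the 3 passed either way. These genes were picked for their reading on Cre replicate 3, and EV replicate 3 was the highest EV array for each. A smaller SE with the block follows from that and is no sign that the arrays are paired. For Egr1 the SE was 0.16 with the block and 0.19 without it (limma adjusted p = 0.235 with the block). Among the 10 genes Cre replicate 3 was the lowest Cre array for Dusp4, Dusp5, Dusp6, Spry2 and Etv5, and the highest for Spry4 and Egr1.

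**Figure D3:**
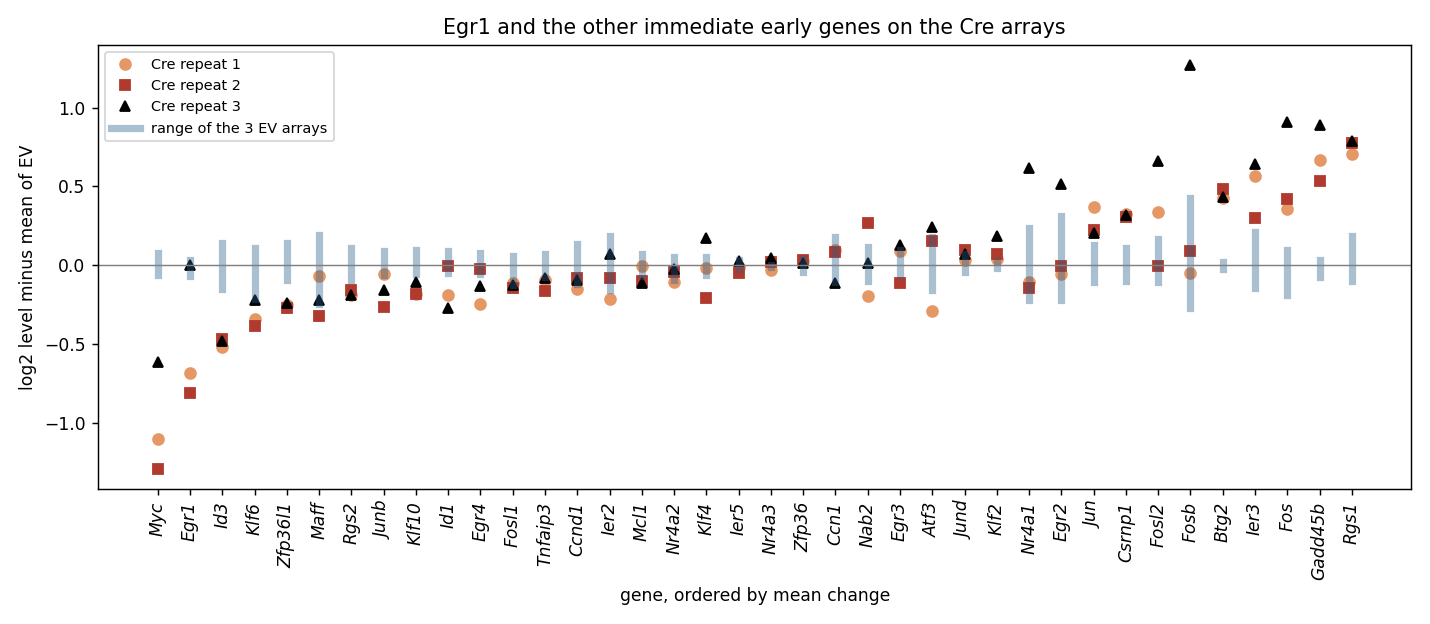
Log2 level of Egr1 and 37 other immediate early genes on each Cre array minus the mean of the EV arrays, ordered by mean change, with blue bars for the range of the 3 EV arrays. Black triangles mark Cre replicate 3, which reads above the other Cre arrays for Fosb, Egr1, Nr4a1, Myc, Egr2 and Fos, and EV replicate 3 is the upper end of the blue bar for all of these but Egr1.

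The immediate early genes as a list moved in both directions. Of the 37 measured without Egr1, 3 rose, 2 fell and 32 did not pass, with a median change of 0.013. At an unadjusted p below 0.05 in limma, 7 were higher and 5 lower, against 7.1% and 9.02% of all genes. Rgs1, which curbs G protein signalling, read 5.94, 6.01 and 6.02 on the Cre arrays and 5.15, 5.42 and 5.14 on the EV arrays, a rise of 0.76 (SE 0.09; limma adjusted p = 0.00465). Btg2, which slows proliferation, rose by 0.45 (SE 0.06; limma adjusted p = 0.00752), and the stress gene Gadd45b rose by 0.70 (SE 0.10; limma adjusted p = 0.00915). These 3 passed in each fit with 1 array left out, but with ordinary t statistics Rgs1 (adjusted p = 0.0752 over all genes tested) and Gadd45b (0.0959) did not. Myc fell by 1.00 (SE 0.16; limma adjusted p = 0.0167), and its call was lost without Cre replicate 1 or any EV replicate (limma adjusted p between 0.0570 and 0.0662, changes between -1.03 and -0.95). The other fall was Id3, an inhibitor of E proteins named after its values were seen, at -0.49 (SE 0.08; limma adjusted p = 0.0228). It was kept only without EV replicate 3, and otherwise the adjusted p lay between 0.0600 and 0.0861, with changes between -0.50 and -0.42. With ordinary t statistics neither Myc (adjusted p = 0.149) nor Id3 (0.114) passed. Fos, the classic ERK-induced early gene, read 5.42, 5.49 and 5.97 on the Cre arrays and 5.15, 4.88 and 5.16 on the EV arrays. Its Cre arrays were all higher, and its difference of 0.56 (SE 0.15; limma adjusted p = 0.113) had the opposite sign to that of Egr1, although neither passed.

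Beyond Dusp4, Dusp5 and Dusp6, the MAP kinase phosphatases did not share a direction. Of 13 others measured, 1 rose, 2 fell and 10 did not pass, with a median change of 0.14. At an unadjusted p below 0.05 in limma, 6 were higher and 3 lower, against 7.1% and 9.02% of all genes. Dusp19, linked to the JNK pathway, read 5.61, 5.86 and 5.64 on the Cre arrays and 6.37, 6.49 and 6.47 on the EV arrays. It fell by 0.74 (SE 0.09; limma adjusted p = 0.00407) and passed with any 1 array left out, but not with ordinary t statistics (adjusted p = 0.0703). Dusp10, which acts on JNK and p38, read 7.06, 7.44 and 7.58 on the Cre arrays and 6.28, 6.19 and 6.69 on the EV arrays. It rose by 0.97 (SE 0.17; limma adjusted p = 0.0234), a call lost without Cre replicate 2 or 3 or EV replicate 1 or 2 (adjusted p between 0.0826 and 0.0914, changes between 0.86 and 0.93). Dusp7, the close relative of Dusp6 that is also specific to ERK, read 8.43, 8.26 and 8.20 on the Cre arrays and 8.73, 8.79 and 8.66 on the EV arrays. It fell by 0.43 (SE 0.08; limma adjusted p = 0.0293), a call kept only without Cre replicate 1 and otherwise lost (adjusted p between 0.0626 and 0.108, changes between -0.46 and -0.39). With ordinary t statistics Dusp10 (adjusted p = 0.172) and Dusp7 (0.114) did not pass either.

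Of 15 other feedback genes of receptor, RAS and ERK signalling, 0 passed in either direction with limma. Over all genes, 9.02% were lower and 7.1% higher at an unadjusted p below 0.05 in limma. In this list 2 were lower and 0 higher. They were Errfi1, an inhibitor of the EGF receptor, at -0.30 (SE 0.10; limma adjusted p = 0.171), and Lrig1, which turns over receptors of that family, at -0.26 (SE 0.08; limma adjusted p = 0.167). Both had means below the median level of all genes, 5.25, in Cre and in EV. In this list 13 genes had a mean below EV and 2 above, while 50.9% of all genes had a mean below EV. The median change of the list was -0.10, against -0.0027 for all genes. Among 10 other ETS and serum response factors, 1 fell, 0 rose and the median change was 0.0023. At an unadjusted p below 0.05 in limma, 3 of these were lower and 1 higher. Elk3, a partner of serum response factor that ERK phosphorylates, read 8.31, 8.18 and 8.20 on the Cre arrays and 8.73, 8.80 and 8.78 on the EV arrays. It fell by 0.55 (SE 0.07; limma adjusted p = 0.00491) and passed with any 1 array left out. Etv4, of the same PEA3 group as Etv5, differed by -0.31 (SE 0.09; limma adjusted p = 0.152) with no overlap between groups. Its means, 4.84 in Cre and 5.15 in EV, lay below the median level of all genes too.

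Of 31 listed genes of the cascade itself, from adaptors to ERK-activated kinases, 23 were measured and 8 were not analysed here. Of the 23, 1 fell, 0 rose and 22 did not pass (limma), with a median change of 0.020. At an unadjusted p below 0.05 in limma, 2 were lower and 0 higher, against 9.02% and 7.1% of all genes. Gab1, an adaptor that brings the phosphatase SHP2 and PI3 kinase to receptors, read 4.89, 5.07 and 5.11 on the Cre arrays and 5.99, 6.12 and 5.94 on the EV arrays. It fell 1.99-fold (log2 change -0.99, SE 0.08; limma adjusted p = 9.1e-04) and passed with any 1 array left out. Its Cre mean of 5.02 lay below the median level of all genes, 5.25, and its EV mean of 6.02 above it. Map2k1, which encodes the ERK kinase MEK1, read 7.07, 7.01 and 6.96 on the Cre arrays and 7.31, 7.44 and 7.21 on the EV arrays. Its groups did not overlap and its difference of -0.31 (SE 0.08) did not pass (limma adjusted p = 0.0910).

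A list of 10 genes used as a readout of MAPK pathway activity in human tumours holds 5 of the genes above, Dusp4, Dusp6, Spry2, Spry4 and Etv5, so it is not independent of them. Of its 10 genes Dusp4 fell, 0 rose and 9 did not pass. At an unadjusted p below 0.05 in limma, 4 were lower and 1 higher, against 9.02% and 7.1% of all genes. Dusp4, Dusp6 and Etv5 were among the lower ones, so these counts largely repeat those given above. A mean below EV was found for 9 of the 10, against 50.9% of all genes. The exception was Epha2, a receptor tyrosine kinase named after its values were seen, which read 8.38, 8.40 and 8.33 on the Cre arrays and 8.22, 8.18 and 8.12 on the EV arrays. Its difference was 0.20 (SE 0.06; limma adjusted p = 0.172). Ccnd1, the cyclin D1 gene, differed by -0.11 (SE 0.08) and Phlda1 by -0.068 (SE 0.07), with overlapping arrays.

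**Figure D4:**
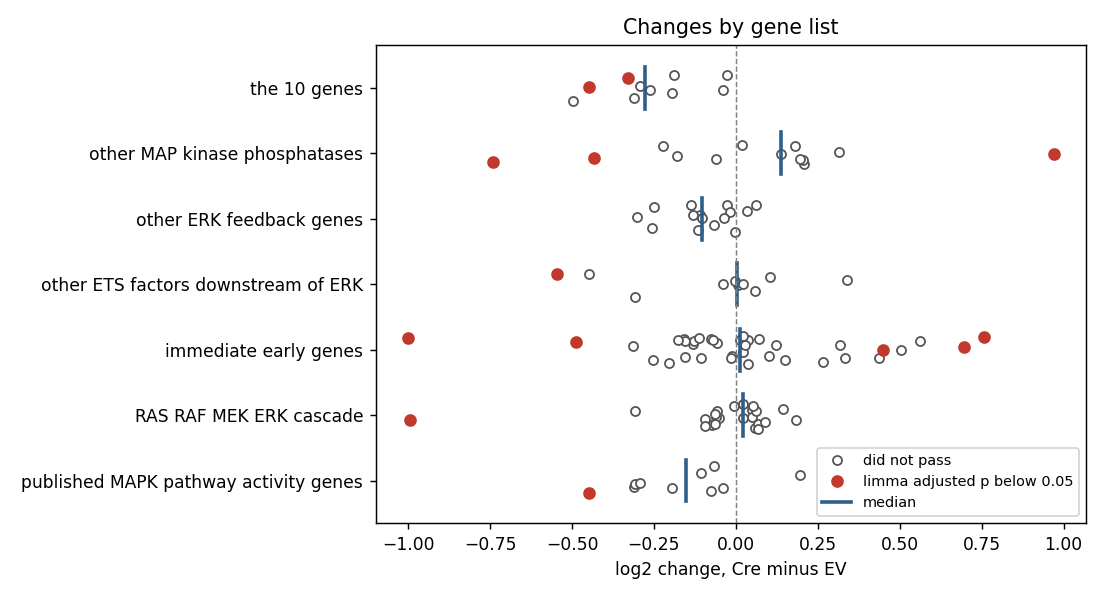
Log2 change, Cre minus EV, of each gene in the 10 described here and in 6 related lists, with filled points for a limma adjusted p below 0.05 and blue lines for medians. The 10 genes have a median of -0.28, and the immediate early genes spread to both sides of 0.

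The genes whose 6 values lay closest to those of Dusp4, which had the smallest p of the 10, were Scd2, Gbe1, Pde3b and Adam6b. Likeness was the Euclidean distance over the 6 arrays after each gene was centred on its own mean, and it was 0.084 for Scd2, 0.089 for Gbe1, 0.10 for Pde3b and 0.107 for Adam6b. Scd2, a fatty acid desaturase, read 9.55, 9.62 and 9.44 on the Cre arrays and 9.87, 9.98 and 9.89 on the EV arrays. Gbe1, the glycogen branching enzyme, read 6.83, 6.86 and 6.66 on the Cre arrays and 7.27, 7.30 and 7.21 on the EV arrays. In each the Cre arrays were lower, with replicate 3 the lowest, as for Dusp4, which follows from picking genes by their likeness to it.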

How the data were processed

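Total RNA (Qiagen RNeasy) was turned into biotinylated cRNA for Affymetrix arrays of 1 colour, per the labels' protocols. The deposited values are log2 levels per probe set made by the authors; the submitters' processing notes name RMA, with its version not given in the sources used here. RMA brings arrays to a common distribution, so changes are relative to other genes (array medians lay between 5.22 and 5.27). Low readings understate fold changes, and precision is limited by the number of arrays.

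Of 25006 probe sets, 21467 had 1 gene symbol, 1521 several and 2018 none, by the platform annotation. RefSeq GRCm38.p6 held the gene identifier of 21386 of the first kind, and the test ran on 19733 genes. Genes were compared with limma 3.58.1 in R 4.3.3 (lmFit, eBayes, group as the factor, no filter), with Benjamini-Hochberg adjustment and a threshold of 0.05. On simulated data the same fit recovered 58 of 100 genes changed by 0.5 and 84 of 100 changed by -1 on the log2 scale, with 7 false calls. The simulation drew normal noise with SDs shuffled among genes and held no change smaller than 0.5. Its rates are therefore not the power for the 10 genes. The 10 genes changed by 0.50 or less in size, so those that did not pass may still have changed. Python 3.11.15, pandas 2.3.3 and matplotlib 3.10.9 made the tables and plots. Alternatives were a replicate block, other normalizations, filters on dim genes, variance models, array weights, probe set rules and leaving out each array.

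The 10 genes and all lists were chosen with earlier results of these data known. The genes named were Ppp2r1a, the 10, and from each of 6 lists up to 4 that passed, taken by smallest p (the 2 smallest where fewer than 2 passed), plus the 4 genes closest to Dusp4. Id3, Epha2, Ccnd1, Phlda1, Fos, and the genes picked for their reading on Cre replicate 3 were named after their values were seen.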

Additional observations from a re-analysis of the deposited data

How the results depend on the processing

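With 3 arrays a group, calls near the threshold moved with the variance model, the filter and single arrays. Over all genes, 267 rose and 422 fell (689). With 1 array left out 138 to 169 rose and 215 to 270 fell (362 to 424 in all), with the lowest 50% of genes left out 537 rose and 758 fell (1295), with eBayes trend and robust settings 640 and 918 (1558), and with ordinary t statistics 64 and 84 (148). Of the 10 genes, 2 fell. The count was 5 with the lowest 50% left out, where 758 of all 9866 genes tested fell. It was 5 with trend and robust settings and 0 with ordinary t statistics, where 918 and 84 of all 19733 genes fell. With 1 array left out it was 0 to 1, and 215 to 270 of all genes fell. Dusp6 (-0.31), Spred2 (-0.26) and Etv5 (-0.29) passed with trend and robust settings (limma adjusted p = 0.00416, 0.00869 and 0.00847) and with the lowest 50% left out (0.0208, 0.0281 and 0.0316), and Dusp6 also with the lowest 25% left out (0.0493). Under ordinary t statistics Dusp4 (-0.45) and Spred1 (-0.33) lost the call (adjusted p = 0.0814 and 0.0703). With 1 array left out Dusp4 ranged from -0.49 to -0.40, Spred1 from -0.36 to -0.30 and Egr1 from -0.75 to -0.34. The sign turned for Spry1 with quantile normalization again (0.0040), for Spry4 without Cre replicate 2 (0.11) or EV replicate 2 (0.0445), and, without Cre replicate 3, for Nr4a1 (-0.12) and Egr2 (-0.0295). Over the fits with 1 array left out, Spry4 ranged from -0.17 to 0.11, Nr4a1 from -0.12 to 0.26, Egr2 from -0.0295 to 0.31 and Fosb from 0.0205 (without Cre replicate 3) to 0.68. Spry4 had no value with the lowest 50% left out, since it lay among those genes. Where fewer genes or arrays entered the fit that is part of the setting, and otherwise the cause was not tested.

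The repeat numbers were also fitted as a replicate block. Arrays with the same number had correlations of their deviations from the group means of 0.0094, -0.012 and 0.0304. Over all genes the numbers were therefore not taken to pair the arrays. Both repeat 3 arrays were high for Fosb, Nr4a1 and Egr2, genes picked for their reading on Cre replicate 3. Under the block 157 genes rose and 268 fell (425), and 1 of the 10 fell, with Spred1 (-0.33) at a limma adjusted p of 0.111. Dusp7 (0.0675) and Id3 (0.0550), among the other genes, also lost the call under the block, as did Scd2 (0.0719), Pde3b (0.0641) and Adam6b (0.0641). Not every array correlated best with its own number.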
